A study of Homo sapiens with 12 samples.

Results

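The G2 and mitosis genes encode the proteins that take a cell from the end of DNA replication through chromosome segregation to the split into daughter cells. A list of 48 such genes was followed in 231BR, a line derived from human MDA-MB-231 breast cancer cells for its growth in the brain. A gene counted as measured where the array had a probe set that named it and no other gene. This held for 44 of the 48, out of 17958 genes in all. BUB1B, KIF20A, NCAPG and PTTG1 lie on probe sets that name a second gene as well and were not used. This rule for probe sets took no account of any difference between groups. Where a gene had more than 1 probe set, as BIRC5 and CDC20 did, the one with the highest mean was taken. The list of genes, like the other lists below, was chosen with earlier results of these data known.

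All groups consisted of 231BR cells that carried EGFP. The 4 groups of 3 arrays were cells given vehicle alone, cells given 10 nM estradiol alone, cells given vehicle in culture with mouse astrocytes, and cells given estradiol in culture with mouse astrocytes. Co-culture lasted 24 h, after which cells with EGFP were sorted away from the astrocytes, and the extraction protocol speaks of sorted cells for every sample. Arrays are numbered by replicate 1, 2 and 3, and values below stand in that order. Nothing in the labels tells if the 3 came from separate cultures. The p-values therefore cover only the spread between these samples, which may be technical. The title of the series names estrogen's paracrine action by way of astrocytes as its question.

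Entry into mitosis is driven by the kinase CDK1 bound to cyclin A or cyclin B, and the transcription factor FOXM1 together with the MuvB and B-MYB proteins raises the RNAs of many of these genes in G2. The anaphase-promoting complex with CDC20 then ends mitosis by marking cyclin B and securin for destruction. In tumours the RNAs of this group, MKI67 above all, are read as a measure of how many cells are dividing. In a bulk sample such as these, fewer cells in G2 and mitosis and less of each RNA per cell cannot be told apart.

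Many promoters of this group carry a CHR, a short element bound by MuvB complexes, and a CCAAT box, bound by NF-Y. The promoters shown belong to the 5 members that fell with astrocytes under estradiol (MKI67, CENPA, CENPF, CENPE and ASPM) and to CCNB2, whose signal was lower on every co-culture array. The last are those of PLK1 and CDC20, which passed in no comparison of the main fit (log2 changes of −0.27 and 0.33 averaged over both astrocyte comparisons). Each is the 150 bases before the RefSeq start in GRCh38.p14, written 5′ to 3′ on the gene's strand, with CHR letters (TTTGAA, its reverse complement TTCAAA, or TTCGAA) and CCAAT boxes (CCAAT or its reverse complement ATTGG) in capitals.
MKI67 (chr10:128126424-128126573, minus strand): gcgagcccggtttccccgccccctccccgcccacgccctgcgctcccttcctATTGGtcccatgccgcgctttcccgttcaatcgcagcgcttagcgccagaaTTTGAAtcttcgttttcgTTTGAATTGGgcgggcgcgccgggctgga
CENPA (chr2:26785906-26786055, plus strand): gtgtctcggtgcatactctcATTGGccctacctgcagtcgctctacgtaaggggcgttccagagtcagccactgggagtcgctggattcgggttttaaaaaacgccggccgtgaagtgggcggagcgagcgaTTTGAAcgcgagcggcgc
CENPF (chr1:214603045-214603194, plus strand): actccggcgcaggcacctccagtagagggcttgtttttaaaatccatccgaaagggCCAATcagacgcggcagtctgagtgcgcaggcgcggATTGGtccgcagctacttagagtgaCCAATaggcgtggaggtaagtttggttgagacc
CENPE (chr4:103198344-103198493, minus strand): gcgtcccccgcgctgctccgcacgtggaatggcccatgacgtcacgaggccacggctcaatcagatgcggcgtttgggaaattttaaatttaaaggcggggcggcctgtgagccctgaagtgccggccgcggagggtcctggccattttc
ASPM (chr1:197146670-197146819, minus strand): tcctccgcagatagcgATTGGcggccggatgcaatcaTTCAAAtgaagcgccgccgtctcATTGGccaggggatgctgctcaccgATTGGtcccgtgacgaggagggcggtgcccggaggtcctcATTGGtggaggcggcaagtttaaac
CCNB2 (chr15:59104996-59105145, plus strand): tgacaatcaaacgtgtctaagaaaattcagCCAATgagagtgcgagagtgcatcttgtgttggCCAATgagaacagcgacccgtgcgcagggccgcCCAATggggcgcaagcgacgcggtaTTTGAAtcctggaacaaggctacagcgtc
PLK1 (chr16:23678739-23678888, plus strand): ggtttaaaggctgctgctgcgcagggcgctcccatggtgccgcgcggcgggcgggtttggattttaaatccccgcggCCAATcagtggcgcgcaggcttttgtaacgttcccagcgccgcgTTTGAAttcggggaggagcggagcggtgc
CDC20 (chr1:43358831-43358980, plus strand): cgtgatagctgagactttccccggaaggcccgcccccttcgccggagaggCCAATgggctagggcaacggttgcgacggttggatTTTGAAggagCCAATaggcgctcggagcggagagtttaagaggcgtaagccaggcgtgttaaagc

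In MKI67 the CHR nearest the start runs into an ATTGG, so the capitals there are 1 unbroken run of both. Its CHR matches begin 47 and 29 bases before the start, and those of CCNB2 and PLK1 begin 29 bases before it. In CENPA the match begins 18 bases before the start and in CDC20 65 bases before it. In ASPM it lies on the other strand, 113 bases before the start. CENPF has 3 CCAAT boxes and no CHR in its stretch, although a CHR match begins 41 bases after the start, and CENPE has neither. RefSeq's table held windows of 250 bases before to 50 after the start for 41 of the 48 listed genes, 53 windows in all. A CHR match was in 36 of the 53 (67.9%), against 16.35% of all 35116 windows, and a CCAAT box was in 36 (67.9%), against 34.61%. Both were in 28 (52.8%), against 6.376%. Among the windows of DNA replication and S phase genes, 3 of 55 had a CHR match (5.455%) and 32 a CCAAT box (58.2%). A match is a string of letters and not a shown binding site. Of the 37 measured members with a window, the 31 with a CHR match had a median change with astrocytes of −1.02 on the log2 scale, and the 6 without had −0.81.

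Whole-array differences bear on every value that follows. The SD of the log2 signals of all genes was 1.77 to 2.02 on the arrays of cells grown alone and 1.26 to 1.85 on those from co-culture. It was lowest on replicate 2 of estradiol with astrocytes (1.26) and of vehicle with astrocytes (1.49). Between 42 and 44 of the 44 members had a signal above the array's median gene on the arrays of cells grown alone, and on replicate 2 of estradiol with astrocytes 31 did. Of the markers of the parent line, vimentin (VIM) ranged from 9.55 to 10.8 and CD44 from 7.68 to 9.95 on the log2 scale. The estrogen receptor gene ESR1, which the parent line does not express, ranged from 3.31 to 5.09 and PGR from 2.50 to 4.01. ERBB2 ranged from 5.30 to 6.21. In the mean of both astrocyte comparisons described below, ESR1 rose by 0.80 from that low level (adjusted p = 0.0256 in limma). S100A4, which ranged from 4.40 to 6.29, rose by 0.62 (adjusted p = 0.0165). CD44 fell by 0.93 (adjusted p = 0.0148) and the growth factor receptor gene EGFR by 1.45 (adjusted p = 0.00714). Of the 12 markers of the parent line, 2 were called higher and 3 lower, against 24.5% and 23% of all genes.

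With astrocytes most G2 and mitosis genes had lower signals, among them genes of the kinetochore, the spindle and mitotic chromosomes. In estradiol with astrocytes against estradiol alone, 5 of the 44 fell in limma after adjustment over all genes, MKI67, CENPA, CENPE, CENPF and ASPM, and none rose. That is 11.4% of the members against 8.15% of all genes called lower, and 5.03% of all genes were called higher. Changes were negative for 42 of the 44 (47.6% of all genes), with a median of −1.11 against 0.07 over all genes. In vehicle with astrocytes against vehicle alone 41 were negative (46.9% of all genes) with a median of −0.73, against 0.06 over all genes. There 11 of the 44 members, and 5073 of all 17958 genes, had an unadjusted p under 0.05 in limma. After adjustment 0 of the 44 passed, and of all genes 0.039% were called lower and 0.0167% higher. These 0 calls became 21 (47.7%) without replicate 2 of estradiol with astrocytes, where 18.1% of all genes were called lower. They became 2 (4.55%) without replicate 1 of estradiol with astrocytes or of vehicle with astrocytes. Of all genes 4.49% and 6.82% were called lower there, in that order. All arrays share 1 estimate of the spread, so an array outside a comparison can move its calls. In a contrast that averages both comparisons, 6 co-culture arrays against 6 of cells grown alone, 21 members fell and none rose, 47.7% of the members against 23% of all genes called lower, while 24.5% were called higher. Changes were negative for 42 (47.1% of all genes). All 6 co-culture arrays were below all 6 others for 10 members (22.7%, against 11.3% of all genes). The 21 calls became 11 (25%) without replicate 1 of vehicle alone or replicate 2 of vehicle with astrocytes (14.6% and 15.6% of all genes called lower). They became 12 (27.3%) without replicate 2 of vehicle alone or replicate 1 of estradiol alone (15.4% and 15.3% of all genes). Without replicate 1 of estradiol with astrocytes they became 35 (79.5%, against 30.4% of all genes). Of the 21 members, 11 were called whichever 1 array was left out. Among the 8979 genes above the median level, where 43 of the members lie, 18 members and 35.2% of genes were called lower, with medians of −0.94 and −0.48. Under estradiol, 5 of those 43 members fell against 14.7% of genes of that level, a share below the background, with medians of −1.13 and −0.58.

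The directions depended on how the range of signal of the arrays was treated. When the array's SD entered the fit as a covariate, the members' median turned to 0.12 under estradiol, 0.25 under vehicle and 0.17 in the mean of both, and of the members 1 (CENPE) then fell and 2 (TTK and CDC20) rose in that mean. The share of all genes called in that fit was 5.68% lower and 7.87% higher. With quantile normalization the medians stayed negative at −0.74, −0.39 and −0.62, and in the mean of both 9 members were called lower and 2 higher (16.1% and 16.3% of all genes). Without replicate 2 of both astrocyte groups they were −0.42, −0.47 and −0.42, and 4, 1 and 24 members were called lower, against 5.26%, 2.67% and 21.6% of all genes. In the last 1 member, CDC20, was called higher, against 23.2% of all genes.

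**Figure D1:**
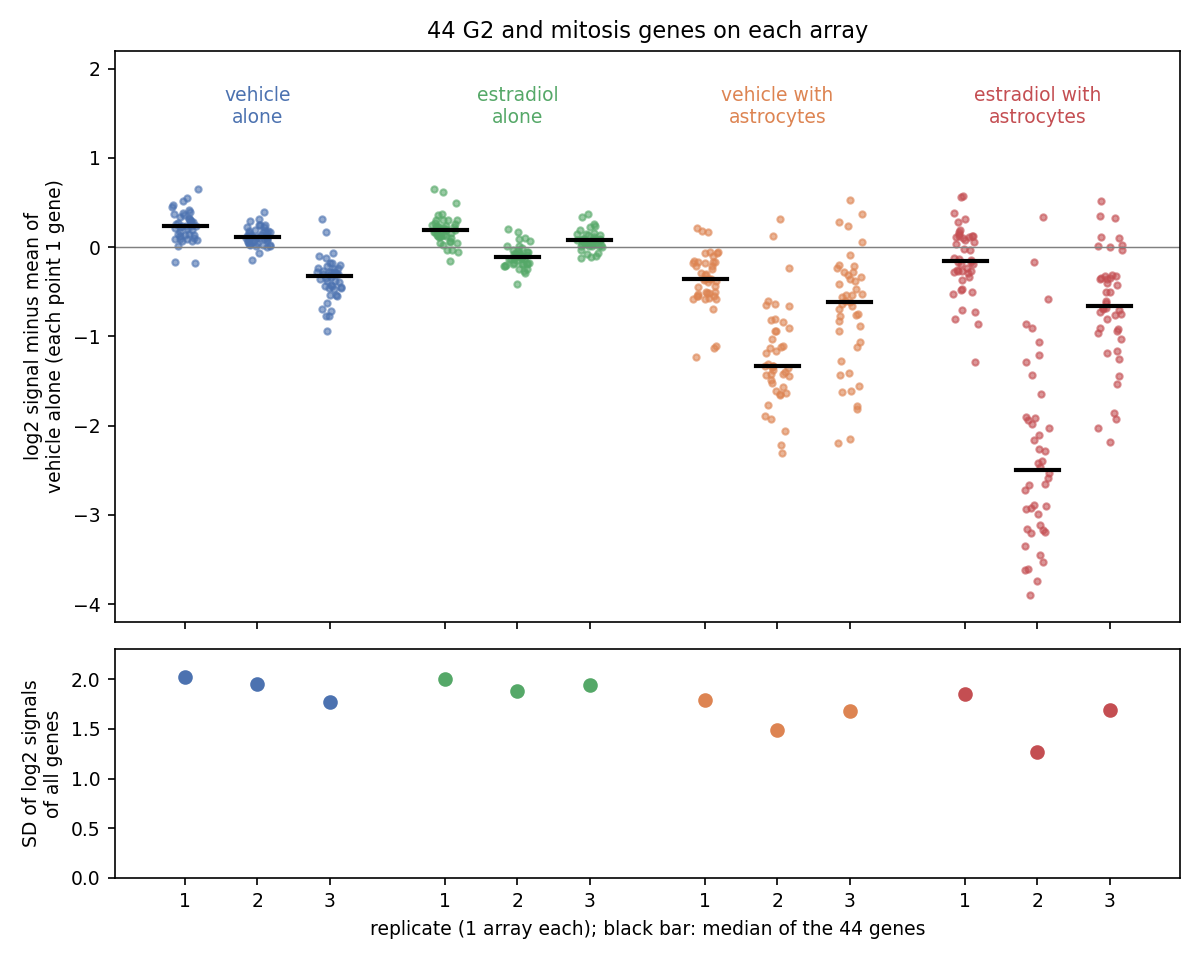
Upper panel: the log2 signal of each of the 44 measured G2 and mitosis genes on each array, minus that gene's mean in vehicle alone, with a black bar at the median of the 44. Lower panel: the SD of the log2 signals of all genes on the same array. The medians lie between −0.32 and 0.24 on the arrays without astrocytes and reach −2.50 on replicate 2 of estradiol with astrocytes, the array with the smallest SD.

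The 3 arrays of each co-culture group were far apart. Relative to each gene's mean in vehicle alone, the median over the 44 members was 0.24, 0.11 and −0.32 on the arrays of vehicle alone and 0.19, −0.12 and 0.08 on those of estradiol alone. It was −0.36, −1.34 and −0.61 in vehicle with astrocytes and −0.16, −2.50 and −0.66 in estradiol with astrocytes. The SDs of the same arrays were 2.02, 1.96 and 1.77 in vehicle alone and 2.002, 1.88 and 1.95 in estradiol alone. They were 1.79, 1.49 and 1.68 in vehicle with astrocytes and 1.85, 1.26 and 1.69 in estradiol with astrocytes. Within each of the 4 groups the arrays stood in the same order by SD as by the members' median. Replicate 2 was the lowest array of both co-culture groups, and replicate 1 of estradiol with astrocytes was above replicate 3 of vehicle alone. Of the 44 members, 20, 42 and 30 lay below every vehicle-alone array on the arrays of vehicle with astrocytes. On those of estradiol with astrocytes 13, 42 and 28 did. The same count was not made over all genes, so it does not set the members apart from other genes. Groups did not overlap and were lower with astrocytes for 24 of the 44 under estradiol (54.5%, against 23.9% of all genes) and for 18 under vehicle (40.9%, against 18.4% of all genes). They were higher without overlap for 1 member each, CDC20 under estradiol (27% of all genes) and BIRC5 under vehicle (23.4% of all genes).

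The regulators of mitotic entry had negative changes in both astrocyte comparisons, and 4 of 7 fell in the mean of both (57.1%). In that mean 47.1% of all genes had negative changes and 23% were called lower, as were 35.2% of genes above the median level. The roles below hold 3 to 14 measured members, so their shares are rough. CCNB2, one of the B-type cyclins that activate CDK1, read 8.43, 8.15 and 7.88 in vehicle alone and 8.29, 7.73 and 8.16 in estradiol alone. In co-culture CCNB2 read 7.02, 6.82 and 7.39 in vehicle with astrocytes and 7.65, 5.89 and 6.99 in estradiol with astrocytes. All 6 co-culture arrays were below all 6 arrays of cells grown alone. Its change was −1.22 (SE 0.38) under estradiol and −1.08 under vehicle, and in the mean of both it fell 2.22-fold (adjusted p = 0.00912 in limma). CDC25B, a phosphatase that activates CDK1, read 7.24, 7.23 and 6.97 in vehicle alone and 7.25, 7.11 and 7.23 in estradiol alone. In co-culture CDC25B read 6.72, 5.99 and 6.83 in vehicle with astrocytes and 6.78, 6.08 and 6.72 in estradiol with astrocytes, again with no overlap in either comparison, and its mean change was −0.65 (SE 0.18, adjusted p = 0.0175 in limma). FOXM1, the transcription factor of the group, read 8.22, 8.19 and 7.84 in vehicle alone and 8.22, 8.02 and 8.02 in estradiol alone. In co-culture FOXM1 read 7.91, 7.48 and 7.61 in vehicle with astrocytes and 7.61, 6.05 and 7.40 in estradiol with astrocytes. The groups overlapped under vehicle and not under estradiol, where FOXM1 stood at −1.07 (SE 0.34, adjusted p = 0.0557 in limma). That value was −0.58 without replicate 2 of estradiol with astrocytes. In the mean of both it fell by 0.74 (adjusted p = 0.0292 in limma). The calls of CCNB2 and CDC25B held whichever 1 of the 12 arrays was left out, and that of FOXM1 was lost for 6 of them.

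Cyclin A, encoded by CCNA2, read 9.41, 9.05 and 8.66 in vehicle alone and 9.01, 8.86 and 9.30 in estradiol alone. In co-culture CCNA2 read 8.64, 7.61 and 8.21 in vehicle with astrocytes and 8.87, 6.05 and 8.34 in estradiol with astrocytes, where replicate 1 of estradiol reached the level of cells grown alone. CCNA2 fell by 1.10 in the mean of both (SE 0.41, adjusted p = 0.0452 in limma), and by 0.67 without replicate 2 of estradiol with astrocytes. Leaving out 1 array ended the call for 7 of 12. The kinase gene CDK1 read 7.96, 7.65 and 6.64 in vehicle alone and 7.78, 7.13 and 7.58 in estradiol alone. In co-culture CDK1 read 6.89, 5.81 and 7.06 in vehicle with astrocytes and 7.61, 4.95 and 6.82 in estradiol with astrocytes, and the groups overlapped in both comparisons. CDK1 was at −0.93 in the mean of both and did not pass (adjusted p = 0.0826 in limma). CCNB1, the main mitotic cyclin, read 8.57, 8.51 and 8.19 in vehicle alone and 8.69, 8.29 and 8.30 in estradiol alone. In co-culture CCNB1 read 8.24, 7.48 and 8.22 in vehicle with astrocytes and 8.54, 6.51 and 8.52 in estradiol with astrocytes. Only replicate 2 of each co-culture group was below all arrays of cells grown alone, and CCNB1 was at −0.57 (SE 0.46) under estradiol, but at 0.10 without that replicate of estradiol with astrocytes. CDC25C, another phosphatase of CDK1, was at −0.35 in the mean of both and did not pass.

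**Figure D2:**
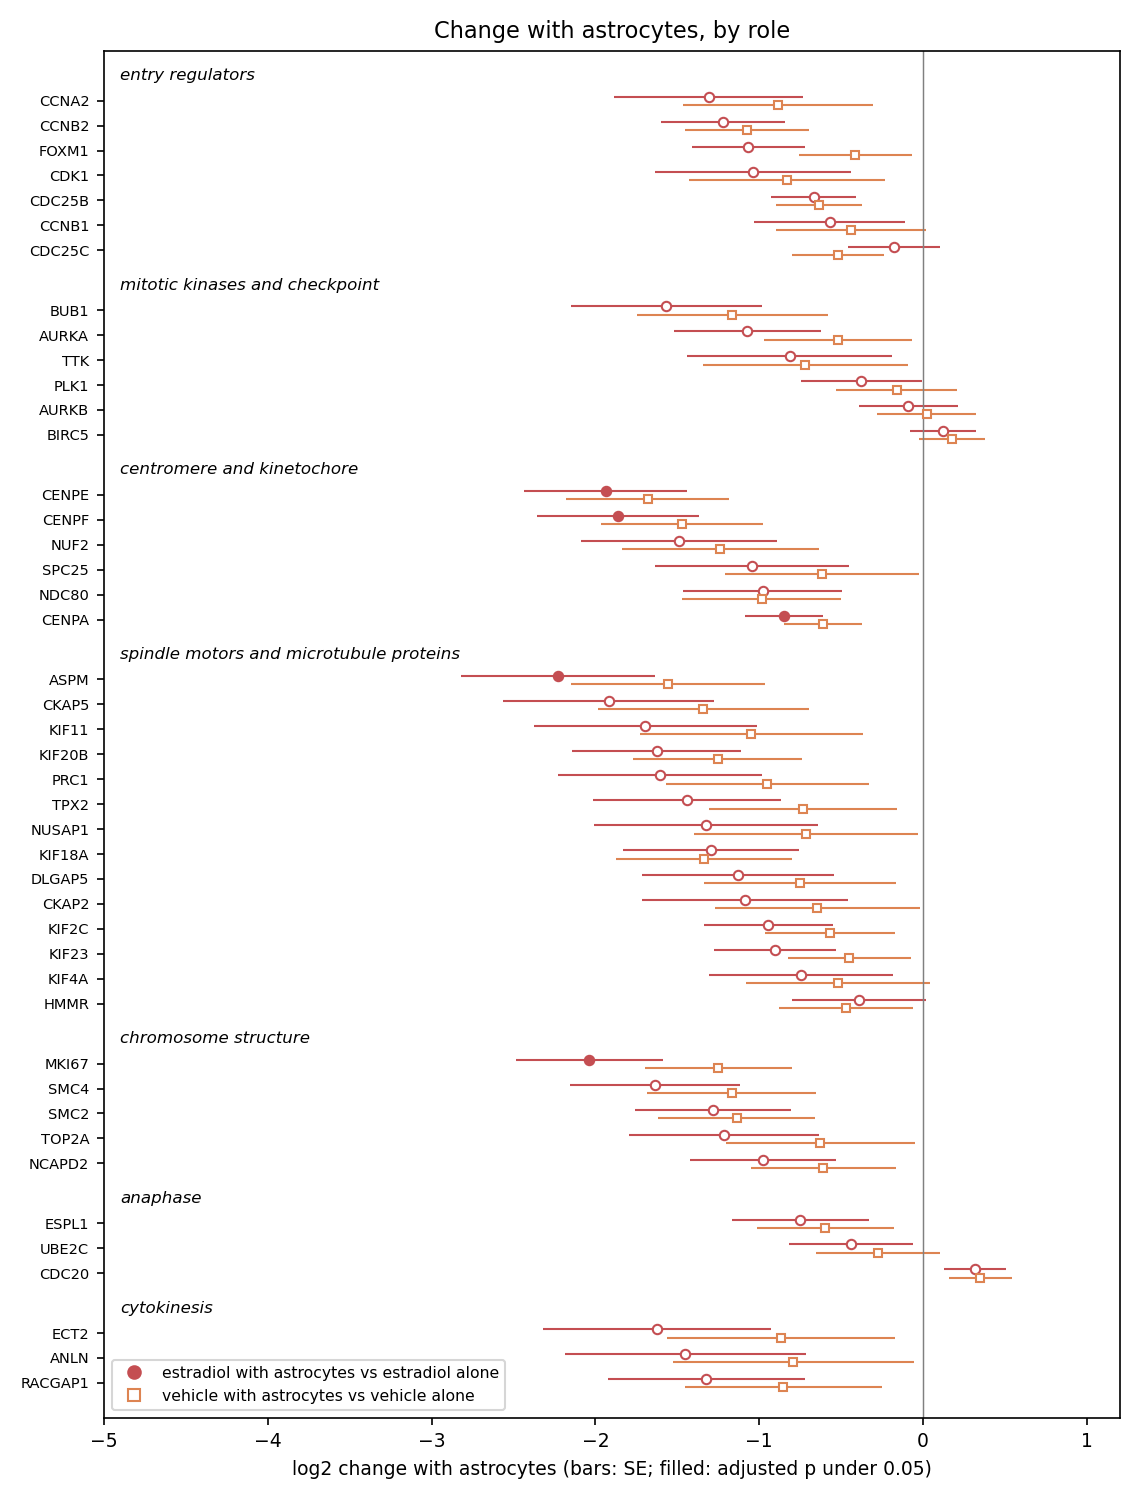
Log2 change with astrocytes of each measured member, by role, under estradiol (red circles) and under vehicle (orange squares), with bars for the standard error of the limma fit and filled symbols for an adjusted p under 0.05. The 5 filled circles are CENPE, CENPF, CENPA, ASPM and MKI67, and CDC20 and BIRC5 are the members whose changes are above 0 in both comparisons.

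The kinetochore is the plate by which chromosomes hold microtubules. Of the members that mark and build it and the centromere, 5 of 6 fell in the mean of both comparisons (83.3%, against 23% of all genes). CENPE, a kinesin that carries chromosomes to the spindle's middle, read 7.87, 7.82 and 7.03 in vehicle alone and 7.77, 7.32 and 7.54 in estradiol alone. In co-culture CENPE read 6.46, 5.27 and 5.94 in vehicle with astrocytes and 6.71, 4.41 and 5.71 in estradiol with astrocytes, and all 6 co-culture arrays lay below all arrays of cells grown alone. It fell 3.83-fold under estradiol (log2 change −1.94, SE 0.50, adjusted p = 0.0388 in limma). Under vehicle it was at −1.68 (adjusted p = 0.0965 in limma). CENPF, a large kinetochore protein that builds up in G2, read 8.63, 8.69 and 8.34 in vehicle alone and 8.68, 8.44 and 8.59 in estradiol alone. In co-culture CENPF read 7.97, 6.34 and 6.95 in vehicle with astrocytes and 7.83, 5.66 and 6.63 in estradiol with astrocytes, also without overlap, and it fell 3.64-fold under estradiol (SE 0.49 on the log2 scale, adjusted p = 0.0404 in limma). CENPA, the histone H3 variant that marks centromeres, read 7.58, 7.68 and 7.22 in vehicle alone and 7.61, 7.49 and 7.53 in estradiol alone. In co-culture CENPA read 7.14, 6.56 and 6.96 in vehicle with astrocytes and 7.01, 6.28 and 6.77 in estradiol with astrocytes, with every co-culture array lower, and it fell 1.80-fold under estradiol (SE 0.24, adjusted p = 0.0435 in limma). In the mean of both comparisons the changes were −1.81 for CENPE, −1.67 for CENPF and −0.73 for CENPA, and these 3 calls held whichever 1 array was left out. Under estradiol the call was lost for 8 of 12 left-out arrays for CENPE, 9 for CENPF and 8 for CENPA. The fold was 2.53 for CENPE and for CENPF without replicate 2 of estradiol with astrocytes. The 5 calls under estradiol dropped to 0 without any 1 array of estradiol alone, without replicate 1 or 2 of vehicle alone and without replicate 2 or 3 of estradiol with astrocytes. In those fits 0.0167% to 1.67% of all genes were called lower. The 5 calls became 1 without replicate 3 of vehicle with astrocytes (2.27%, against 4.35% of all genes called lower). They became 33 without replicate 1 of estradiol with astrocytes (75%, against 26% of all genes).

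NUF2 and NDC80 encode partners in the NDC80 complex, which grips the microtubule end. NUF2 read 8.15, 8.24 and 7.78 in vehicle alone and 8.17, 8.003 and 8.13 in estradiol alone. In co-culture NUF2 read 7.48, 5.99 and 6.99 in vehicle with astrocytes and 7.88, 4.93 and 7.02 in estradiol with astrocytes. NDC80 read 7.24, 7.15 and 6.39 in vehicle alone and 7.29, 6.74 and 7.02 in estradiol alone. In co-culture NDC80 read 6.35, 5.16 and 6.31 in vehicle with astrocytes and 7.04, 4.95 and 6.12 in estradiol with astrocytes, and replicate 1 of estradiol with astrocytes lay among the arrays of estradiol alone. NUF2 fell by 1.36 (adjusted p = 0.0243 in limma) and NDC80 by 0.98 in the mean of both (adjusted p = 0.0366 in limma). SPC25, a further subunit of that complex, was at −0.83 and did not pass. The calls of NUF2 and NDC80 were lost for 4 and 6 of 12 left-out arrays.

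The spindle motors and microtubule proteins were the largest role, with 14 members measured. All 14 had negative changes in both comparisons, and 8 fell in the mean of both (57.1%, against 23% of all genes). ASPM, which holds microtubule ends at the spindle poles, read 8.25, 8.15 and 7.52 in vehicle alone and 8.28, 7.89 and 8.08 in estradiol alone. In co-culture ASPM read 7.43, 6.05 and 5.77 in vehicle with astrocytes and 7.17, 4.44 and 5.95 in estradiol with astrocytes, with no overlap in either comparison. It fell 4.69-fold under estradiol (log2 change −2.23, SE 0.59, adjusted p = 0.0404 in limma) and was at −1.56 under vehicle. Without replicate 2 of estradiol with astrocytes its fold under estradiol was 2.87 (adjusted p = 0.0733 in limma) and without replicate 1 it was 7.41, and the call was lost for 8 of 12 left-out arrays. CKAP5, a microtubule polymerase, read 9.01, 8.87 and 8.51 in vehicle alone and 8.76, 8.68 and 8.83 in estradiol alone. In co-culture CKAP5 read 8.21, 7.14 and 7.02 in vehicle with astrocytes and 8.09, 4.89 and 7.54 in estradiol with astrocytes, all below every array of cells grown alone. It was at −1.92 under estradiol (adjusted p = 0.0603 in limma), but at −0.95 without replicate 2 of estradiol with astrocytes, and fell by 1.63 in the mean of both (adjusted p = 0.0168 in limma). PRC1, which bundles the microtubules of the central spindle, read 8.52, 8.47 and 8.35 in vehicle alone and 8.64, 8.62 and 8.53 in estradiol alone. In co-culture PRC1 read 8.20, 6.95 and 7.33 in vehicle with astrocytes and 8.17, 5.10 and 7.70 in estradiol with astrocytes, again without overlap, and fell by 1.28 in the mean of both (SE 0.44). In that mean the calls of ASPM and CKAP5 held whichever 1 array was left out. PRC1 was lost for 7 of 12 and stood at −0.81 without replicate 2 of estradiol with astrocytes.

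Among the kinesin motors, KIF11, which pushes the spindle poles apart, read 8.55, 8.63 and 7.78 in vehicle alone and 8.37, 8.25 and 8.40 in estradiol alone. In co-culture KIF11 read 8.10, 6.67 and 7.04 in vehicle with astrocytes and 8.09, 4.70 and 7.13 in estradiol with astrocytes. KIF18A, which trims the microtubules at kinetochores, read 8.07, 7.80 and 6.999 in vehicle alone and 7.92, 7.51 and 7.71 in estradiol alone. In co-culture KIF18A read 6.39, 5.72 and 6.74 in vehicle with astrocytes and 7.44, 4.95 and 6.86 in estradiol with astrocytes, lower without overlap within each comparison. KIF20B, a kinesin of late mitosis, read 6.83, 6.46 and 5.23 in vehicle alone and 6.79, 5.99 and 6.52 in estradiol alone. In co-culture KIF20B read 5.48, 4.54 and 4.74 in vehicle with astrocytes and 5.89, 3.89 and 4.64 in estradiol with astrocytes, and under vehicle replicate 1 of co-culture lay above replicate 3 of cells grown alone. KIF2C, which takes microtubules apart at centromeres, read 7.70, 7.39 and 6.98 in vehicle alone and 7.61, 7.25 and 7.59 in estradiol alone. In co-culture KIF2C read 6.85, 6.54 and 6.98 in vehicle with astrocytes and 7.16, 5.42 and 7.03 in estradiol with astrocytes, lower without overlap but, under vehicle, by less than the last digit shown. In the mean of both the falls were 1.37, 1.32, 1.44 and 0.76, with adjusted p of 0.0368, 0.0186, 0.0123 and 0.0441 in limma in the order given. With 1 array left out KIF20B was called each time, while KIF18A was lost for 2 arrays of 12, KIF11 for 7 and KIF2C for 8. KIF11 was at −0.89 and KIF2C at −0.48 without replicate 2 of estradiol with astrocytes.

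TPX2, which activates Aurora A on the spindle, read 9.46, 9.40 and 8.92 in vehicle alone and 9.49, 9.12 and 9.30 in estradiol alone. In co-culture TPX2 read 8.95, 8.15 and 8.49 in vehicle with astrocytes and 8.92, 6.10 and 8.57 in estradiol with astrocytes, and it fell by 1.09 in the mean of both (adjusted p = 0.0450 in limma). TPX2 was at −0.65 without replicate 2 of estradiol with astrocytes, and its call was lost for 7 of 12 left-out arrays. The other 6 members of the role did not pass in any comparison. Their changes in the mean of both ran from −1.02 for NUSAP1 and −0.94 for DLGAP5 to −0.63 for KIF4A and −0.43 for HMMR, with CKAP2 at −0.87 and KIF23 at −0.68.

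Of the members that shape mitotic chromosomes, 3 of 5 fell in the mean of both (60%, against 23% of all genes). MKI67 (probe set 7937020), which encodes the proliferation antigen Ki-67 that coats mitotic chromosomes, read 8.35, 8.27 and 7.86 in vehicle alone and 8.38, 7.98 and 8.16 in estradiol alone. In co-culture MKI67 read 7.99, 6.73 and 6.002 in vehicle with astrocytes and 6.87, 5.57 and 5.97 in estradiol with astrocytes. Every array of estradiol with astrocytes was below every array of estradiol alone by more than 1 log2 unit, and in vehicle replicate 1 of co-culture lay among the arrays of cells grown alone. MKI67 fell 4.10-fold under estradiol (log2 change −2.04, SE 0.45, adjusted p = 0.0348 in limma). That call was lost for 7 of 12 left-out arrays. Under vehicle it was at −1.25 (adjusted p = 0.124 in limma). SMC4, a core subunit of condensin, read 8.64, 8.65 and 8.19 in vehicle alone and 8.66, 8.31 and 8.52 in estradiol alone. In co-culture SMC4 read 8.14, 7.16 and 6.68 in vehicle with astrocytes and 7.97, 5.56 and 7.05 in estradiol with astrocytes, lower without overlap. SMC2, its partner, read 7.90, 7.65 and 7.32 in vehicle alone and 7.87, 7.42 and 7.68 in estradiol alone. In co-culture SMC2 read 7.11, 6.28 and 6.07 in vehicle with astrocytes and 7.35, 5.09 and 6.68 in estradiol with astrocytes, and the groups of each comparison did not overlap. SMC4 fell by 1.40 and SMC2 by 1.21 in the mean of both (adjusted p = 0.0134 and 0.0168 in limma), and these calls and that of MKI67 in the same mean held whichever 1 array was left out. TOP2A, the topoisomerase that untangles sister chromosomes, read 9.44, 9.35 and 8.80 in vehicle alone and 9.44, 9.01 and 9.23 in estradiol alone. In co-culture TOP2A read 8.98, 8.09 and 8.64 in vehicle with astrocytes and 9.18, 6.28 and 8.57 in estradiol with astrocytes, overlapping under both treatments, and at −0.92 in the mean of both it did not pass (adjusted p = 0.0782 in limma). Nor did the condensin subunit NCAPD2, at −0.79.

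**Figure D3:**
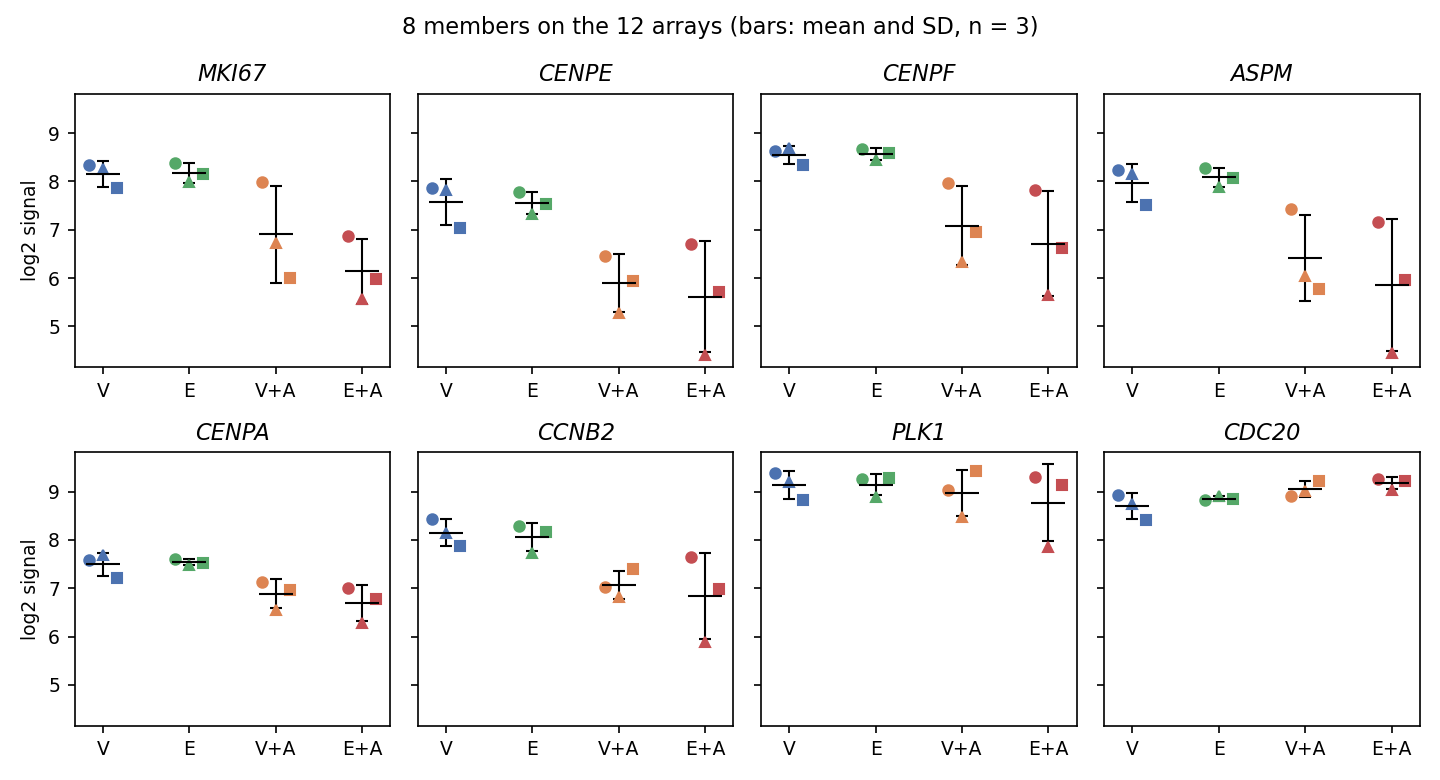
Log2 signals of 8 members on the 12 arrays, for vehicle alone (V), estradiol alone (E), vehicle with astrocytes (V+A) and estradiol with astrocytes (E+A). Circles, triangles and squares are replicates 1, 2 and 3, and bars show the mean and SD of 3 arrays. CENPE, CENPF, ASPM, CENPA and CCNB2 are lower on every co-culture array, whereas PLK1 overlaps and CDC20 is higher on every array of estradiol with astrocytes than of estradiol alone.

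The mitotic kinases and checkpoint genes were mixed, and 1 of 6 fell in the mean of both (16.7%, against 23% of all genes). BUB1, a checkpoint kinase at the kinetochore, read 8.83, 8.73 and 8.24 in vehicle alone and 8.77, 8.56 and 8.74 in estradiol alone. In co-culture BUB1 read 8.09, 7.03 and 7.19 in vehicle with astrocytes and 8.33, 5.40 and 7.64 in estradiol with astrocytes, lower without overlap within each comparison, and in the mean of both it fell by 1.36 (SE 0.41, adjusted p = 0.0222 in limma), a call lost for 5 of 12 left-out arrays. AURKA, the spindle pole kinase Aurora A, read 8.76, 8.67 and 8.08 in vehicle alone and 8.80, 8.60 and 8.88 in estradiol alone. In co-culture AURKA read 8.12, 7.85 and 7.98 in vehicle with astrocytes and 8.56, 6.35 and 8.16 in estradiol with astrocytes, and at −0.80 it did not pass (adjusted p = 0.0567 in limma). PLK1, the Polo kinase of mitotic entry and exit, read 9.40, 9.19 and 8.83 in vehicle alone and 9.26, 8.89 and 9.28 in estradiol alone. In co-culture PLK1 read 9.04, 8.48 and 9.42 in vehicle with astrocytes and 9.31, 7.85 and 9.14 in estradiol with astrocytes. Replicate 3 of vehicle with astrocytes was the highest of all 12 and replicate 2 of estradiol with astrocytes the lowest, and PLK1 was at −0.27 in the mean of both (SE 0.26) but at 0.13 with quantile normalization. BIRC5, which encodes survivin of the chromosomal passenger complex, read 6.89, 6.94 and 6.64 in vehicle alone and 7.02, 6.61 and 6.91 in estradiol alone. In co-culture BIRC5 read 6.99, 6.95 and 7.06 in vehicle with astrocytes and 7.11, 6.65 and 7.15 in estradiol with astrocytes. Under vehicle every co-culture array was higher, and under estradiol the groups overlapped. BIRC5 was at 0.12 (SE 0.20) and 0.18 (SE 0.20) and did not pass in either comparison. Its mean change of 0.15 (adjusted p = 0.378 in limma) became 0.69 with quantile normalization (adjusted p = 0.0117 in limma). AURKB, the kinase of the same complex, was at −0.03, and TTK, another checkpoint kinase, at −0.77, and neither passed.

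CDC20, the activator of the anaphase-promoting complex, was the member with the largest positive change. It read 8.94, 8.75 and 8.42 in vehicle alone and 8.82, 8.91 and 8.84 in estradiol alone. In co-culture CDC20 read 8.91, 9.02 and 9.23 in vehicle with astrocytes and 9.27, 9.04 and 9.22 in estradiol with astrocytes. Under estradiol every co-culture array was higher, and under vehicle replicate 1 of co-culture lay just below replicate 1 of cells grown alone. The change was 0.32 (SE 0.19) under estradiol, 0.35 (SE 0.19) under vehicle and 0.33 in the mean of both, which did not pass (adjusted p = 0.0579 in limma). Without replicate 2 of both co-culture groups the mean change was 0.38 (adjusted p = 0.0355 in limma). It was 0.69 with quantile normalization (adjusted p = 0.0159 in limma) and 0.48 with the array SD as covariate (adjusted p = 0.0471 in limma). CDC20 passed in these 3 fits. With the replicate number as a block, or among genes above the median level, no member was called higher in that mean. With 1 array left out, CDC20 missed the threshold for 11 of 12 arrays. A further probe set that the probe table names CDC20 rose by 1.01 (SE 0.23) in the fit of all 19181 probe sets (adjusted p = 0.00798 in limma). Whether that probe set reads a related copy was not tested. Of the other anaphase genes, the separase gene ESPL1 read 6.57, 6.65 and 6.20 in vehicle alone and 6.49, 6.42 and 6.47 in estradiol alone. In co-culture ESPL1 read 6.29, 4.95 and 6.39 in vehicle with astrocytes and 6.34, 4.83 and 5.97 in estradiol with astrocytes, lower without overlap under estradiol. ESPL1 was at −0.67 and UBE2C, the ubiquitin-conjugating enzyme of the complex, at −0.36, and neither passed.

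Of the cytokinesis genes none of 3 passed in any comparison, where 23% of all genes were called lower in the mean of both. ECT2, which switches on RhoA at the cleavage furrow, read 9.18, 8.81 and 8.35 in vehicle alone and 8.94, 8.65 and 8.84 in estradiol alone. In co-culture ECT2 read 8.28, 7.38 and 8.08 in vehicle with astrocytes and 8.64, 5.04 and 7.86 in estradiol with astrocytes. RACGAP1, the subunit of the centralspindlin complex that binds ECT2, read 8.72, 8.52 and 8.52 in vehicle alone and 8.63, 8.51 and 8.62 in estradiol alone. In co-culture RACGAP1 read 8.13, 7.14 and 7.92 in vehicle with astrocytes and 8.32, 5.39 and 8.08 in estradiol with astrocytes. For both genes the arrays of each co-culture group lay below those of its control. The mean changes were −1.25 (SE 0.49, adjusted p = 0.0544 in limma) and −1.09 (SE 0.42, adjusted p = 0.0525 in limma), and the anillin gene ANLN was at −1.12.

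The members differed in how much of their change stayed once the range of signal of the arrays was fitted. With the array SD as covariate, 30 of 44 changes in the mean of both comparisons were positive, where 55% of all genes were. MKI67 stayed lowest at −0.96 (SE 0.32, adjusted p = 0.0632 in limma), followed by CENPE at −0.67 (adjusted p = 0.0108), ASPM at −0.63 (adjusted p = 0.119) and CENPF at −0.63 (adjusted p = 0.0718). CENPE was the 1 member called lower. TTK rose by 0.67 (adjusted p = 0.0303 in limma), having stood at −0.77 without the covariate, and ANLN turned from −1.12 to 0.57. Because the array SD itself was lower with astrocytes, what belongs to the array and what belongs to the co-culture cannot be told apart in full by this fit. Without replicate 2 of both co-culture groups, the changes in the mean of both were −1.46 for MKI67, −1.45 for ASPM, −1.35 for CENPE and −1.22 for CENPF, and all 4 passed in limma, with adjusted p of 0.0102, 0.00995, 0.00474 and 0.00703.

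**Figure D4:**
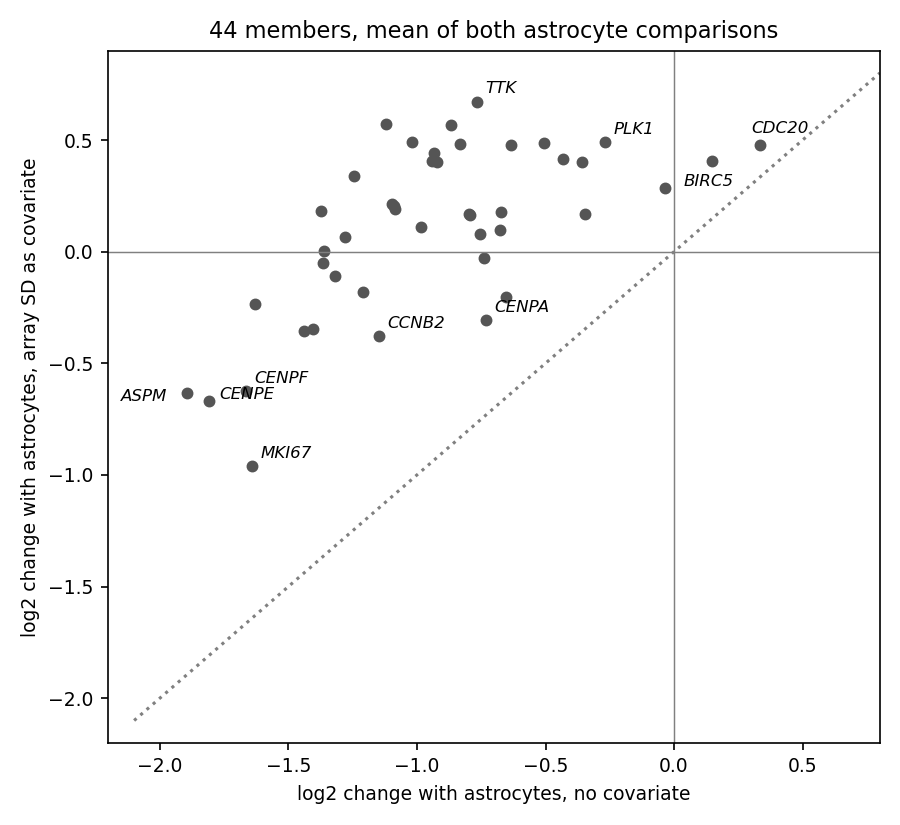
Change with astrocytes of the 44 members in the mean of both comparisons (log2), without a covariate on the horizontal axis and with the SD of each array as covariate on the vertical axis. The dotted line marks equal values. All members but MKI67, CENPE, ASPM and CENPF move to between −0.38 (CCNB2) and 0.67 (TTK), and these 4 lie at −0.63 or lower.

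Longer members tended to have the more negative changes. Gene span, from RefSeq, was known for all 44 measured members. Across members the change in the mean of both comparisons and the span had a Spearman's rho of −0.62, against −0.33 across 17933 genes. With the array SD as covariate the members' rho was −0.25. The 22 members longer than the median span of 33.9 kb had a median change of −1.17 and the 22 shorter ones −0.75. CENPE spans 92.5 kb, ASPM 62.5 kb and CENPF 61.4 kb, while CDC20 spans 4.22 kb, AURKB 5.85 kb and BIRC5 11.4 kb. MKI67 (29.8 kb) and CENPA (8.53 kb) fell with shorter spans, and KIF4A, the longest at 131 kb, was at −0.63. These are descriptions across genes, which are not independent replicates, and all of them share the 12 arrays.

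**Figure D5:**
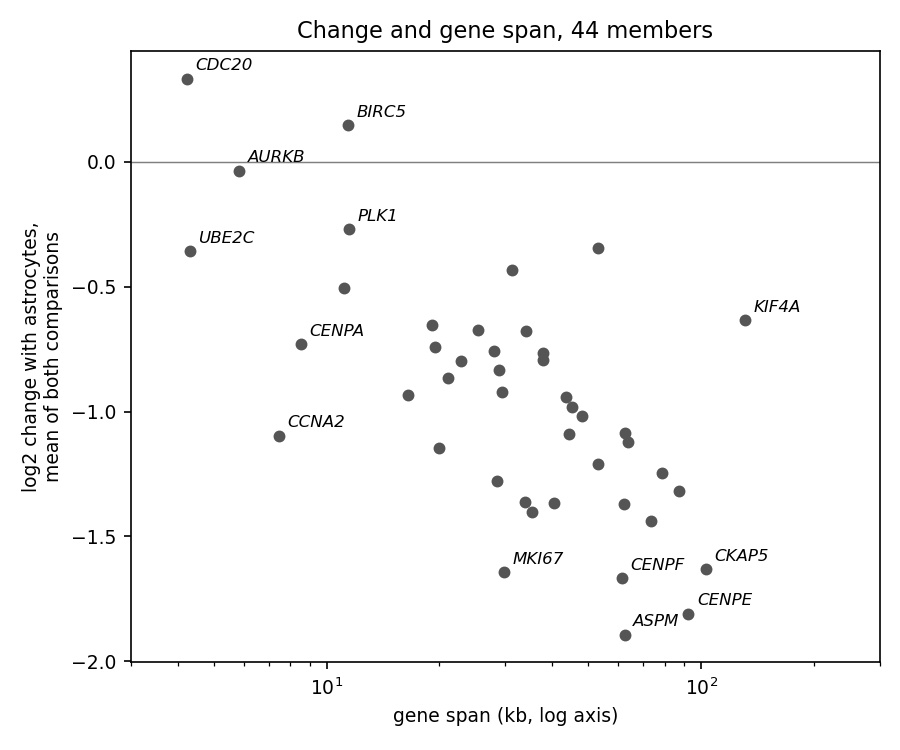
Change with astrocytes in the mean of both comparisons (log2) against gene span (kb, log axis) for the 44 measured members, 1 point a gene. The long genes CENPE and ASPM lie lowest, the short genes CDC20 and BIRC5 lie above 0, and KIF4A is the longest gene with a change of −0.63.

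No member passed a test of estradiol, alone or with astrocytes. In estradiol alone against vehicle alone, 0 of 44 members passed in limma and 0 had an unadjusted p under 0.05. Over all genes 0 were called (0%) and 1 had an unadjusted p under 0.05. The members' changes ran from −0.09 for CCNB2 to 0.26 for KIF20B, with 36 positive (55.5% of all genes) and a median of 0.04 (−0.13 to 0.15 when single arrays were left out). In estradiol with astrocytes against vehicle with astrocytes, the comparison nearest the series' title, 0 of 44 passed and 0 had an unadjusted p under 0.05, while over all genes 0 (0%) were called and 142 had such a p. Changes ran from −0.77 for MKI67 (SE 0.45) to 0.38 for CDC25C (SE 0.28), with 37 negative (49.5% of all genes) and a median of −0.27, which turned to 0.35 without replicate 2 of estradiol with astrocytes. The interaction, the difference between the 2 astrocyte effects, passed for 0 of 44 members in limma, with an unadjusted p under 0.05 for 0 of them and for 31 of all genes, of which 0 were called (0%). MKI67 had the lowest interaction, −0.79 (SE 0.64). Interactions were negative for 40 members (51.3% of all genes), and their median of −0.37 became 0.33 without replicate 2 of estradiol with astrocytes. A miss of the threshold with 3 arrays a group does not show that estradiol left these genes as they were.

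Other genes of G2 and mitosis were lower with astrocytes as well. Of 79 measured genes listed beside the members, 36 fell and none rose in the mean of both comparisons (45.6%, against 23% of all genes called lower), with a median of −0.77. Under estradiol 11 fell (13.9%, against 8.15% of all genes called lower) and none rose, with a median of −0.92. Under vehicle none passed (0.039% of all genes called lower). Among genes above the median level, 14.7% were called lower under estradiol and 35.2% in the mean of both. The 79 genes were not filtered by level. ARHGAP11A fell by 1.90 (SE 0.33), KNL1, the kinetochore scaffold that recruits BUB1, by 2.09 (SE 0.37), MIS18A, which loads CENPA onto centromeres, by 1.08 (SE 0.21) and GAS2L3 by 2.09 (SE 0.41) in the mean of both. Their adjusted p in limma was 0.00421, 0.00421, 0.00505 and 0.00538.

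The neighbouring phases are given for comparison, with no test of the lists against each other. Of 48 measured DNA replication and S phase genes, 13 fell (27.1%) and 3 rose (6.25%) in the mean of both, with a median of −0.57. The share that fell was near the 23% of all genes. HELLS, a chromatin remodeller, fell by 1.99, and CLSPN, which encodes claspin of the replication checkpoint, by 1.60. E2F1, the transcription factor of S phase entry, rose by 0.59 and CDT1, a licensing factor, by 0.54. Of 11 measured D-type cyclin and CDK inhibitor genes 4 fell (36.4%) and 2 rose (18.2%). CCND2 fell by 0.80 and CDK6, the kinase of D-type cyclins, by 1.95, while the inhibitors CDKN1C and CDKN2A rose by 0.70 and 1.29. CDKN2A, which the parent line is known to have lost by deletion, read 3.37, 3.78 and 4.02 in vehicle alone and 3.31, 3.91 and 4.19 in estradiol alone. In co-culture CDKN2A read 4.63, 4.99 and 5.39 in vehicle with astrocytes and 4.53, 5.97 and 4.80 in estradiol with astrocytes, and ESR1, which the parent line does not express, rose in the same mean. The adjusted p in limma was 0.00346, 0.00431, 0.00760 and 0.0146 for the S phase genes and 0.00384, 0.00523, 0.00510 and 0.00638 for the others, in the order given.

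Markers of cells that the astrocyte culture could have left in the sort were more often called higher than lower. Of 13 astrocyte markers 6 rose (46.2%) and 2 fell (15.4%) in the mean of both comparisons. NDRG2 rose by 0.93, GFAP by 0.95 and GJB6 by 0.86 (adjusted p = 0.00527, 0.0125 and 0.0134 in limma). The glutamate transporter gene SLC1A3 fell by 0.94 (adjusted p = 0.00735 in limma). The summed signal of the 13 astrocyte markers, on a linear scale, was 625 to 663 in vehicle alone, 647 to 695 in estradiol alone, 579 to 768 in vehicle with astrocytes and 579 to 717 in estradiol with astrocytes. Of 9 microglia and macrophage markers 8 had positive changes, and 4 rose (44.4%) and none fell. SPI1 rose by 1.28 (adjusted p = 0.00566 in limma), AIF1 by 0.96, ITGAM by 0.49 and C1QB by 0.67. The sum of the 9 was 435 to 466 and 442 to 480 without astrocytes and 424 to 536 and 453 to 495 with them, under vehicle and estradiol in turn. CD68 alone made up 338 to 378 of that sum without astrocytes and 157 to 351 with them, and it did not pass (−0.34, adjusted p = 0.162 in limma). The other 8 summed to 84.3 to 125 and 92.0 to 103 without astrocytes and to 135 to 186 and 118 to 320 with them, higher on every co-culture array of each comparison. Over all genes 24.5% were called higher and 23% lower in the mean of both comparisons. Among genes above the median level 10.6% were called higher and 35.2% lower, so the share called higher depended on the level of signal. Many of these markers had low signals, and no share was counted over genes of their level. Their shares therefore do not set them apart from other genes of low signal. No marker is at 0 on such arrays, and the lowest signals were 2.25 for PTPRC and 2.43 for SLC1A2. How far these human probe sets read mouse RNA was not tested. Whether RNA of other cells had a part in the members' changes was not tested either.

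Many other genes shared the members' pattern over the 12 arrays. The members' median per array correlated over 0.9 (Pearson) with 17.5% of all genes, 3144 genes. By the same measure of likeness the array's SD had an r of 0.966 with that median (Spearman's rho 0.986), a description over 12 arrays in 4 groups. The 5 other genes most like it were AP1G1, PPP2R1B, SNAPC3, AREL1 and ZFR, with r of 0.997, 0.996, 0.996, 0.996 and 0.996 over 12 arrays that share their normalization and range of signal. Against the median of the other members, 27 of the 44 correlated over 0.9, led by KIF11 (0.993) and BUB1 (0.992). CDC20 (−0.40), BIRC5 (0.16) and AURKB (0.42) had the lowest values.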

How the data were processed

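Total RNA of 12 samples was labelled with biotin and hybridised to Human Gene ST arrays (Affymetrix). The deposited values are log2 signals per probe set. RMA and Partek stand in the submitters' processing notes, with no version, role or order. RMA quantile-normalizes probes, yet the deposited columns still differ in range. Arrays have no read depth, so their number limits the precision. The probe table names 1 gene symbol for 19181 of 33297 probe sets, several for 2055 and none here for 12061.

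No filter on low values was applied. All 17958 genes were fitted in 1 limma 3.58.1 model (R 4.3.3, lmFit with a mean per group, eBayes), two-sided, with Benjamini-Hochberg adjustment over all genes and a threshold of 0.05. Every change is on the log2 scale. The mean of both astrocyte comparisons is a contrast of the same fit. With 3 arrays a side, no exact permutation p falls under 0.1. The fits were tested on simulated data. The simulation with changed genes drew its noise independently for each gene and array. It therefore does not cover the whole-array differences in range seen here. Members and lists were chosen with earlier results of these data known, and no list was tested as a set.

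Values on every array are given for 31 members: those past the threshold in any comparison, the 2 with the smallest p of each role under estradiol, 6 fixed genes, and those with positive mean changes. From other lists up to 4 called genes were named by smallest p. Between the 2 astrocyte groups, arrays of the same replicate number deviated together (r = 0.789, 0.756 and 0.214). With the replicate number as a block in those 6 arrays, a fit added after this was seen, 0 members and 0% of all genes passed. In other pairs of groups the numbers did not pair all arrays. Alternatives were quantile normalization, median centring, the array SD as covariate, a level filter, other probe set rules, variance options, array weights (the gene-by-gene method, since the default did not converge), subsets of arrays and another threshold.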

Additional observations from a re-analysis of the deposited data

How the results depend on the processing

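The counts of members called moved most. Under estradiol (5) they were 1 with quantile normalization, 0 with the array SD as covariate and 0 with the arrays of the compared groups only. They were 34 with array weights and 22 at a threshold of 0.1. In these settings 2.95%, 1.89%, 0%, 66.8% and 39.8% of all genes were called, in that order. Under vehicle (0) they were 1 with the array SD, 37 with array weights, 8 with the compared groups only, 1 at 0.1 and 1 without replicate 2 of both co-culture groups. Of all genes 59.4%, 8.88% and 7.29% were called with array weights, the compared groups and 0.1. With the array SD 5.45% were called, and 5.59% without replicate 2 of both co-culture groups. In the mean of both (21) they were 11, 3, 39 and 33 with quantile normalization, the array SD, array weights and 0.1. Of all genes 32.3%, 13.6%, 76.0% and 61.7% were called there, in that order. Leaving out 1 array gave 0 to 33 under estradiol, 0 to 21 under vehicle, 11 to 35 in the mean of both, and 0 in every estradiol comparison and in the interaction. Of all genes 0.0167% to 51.4%, 0.0111% to 34% and 26.6% to 63.1% were called in the first 3, in that order. The medians then ran from −1.66 to −0.42, −0.96 to −0.47, −1.22 to −0.55, −0.13 to 0.15 (estradiol alone), −0.76 to 0.35 (estradiol with astrocytes against vehicle with astrocytes) and −0.90 to 0.33 (interaction). Values that took both signs ran from −0.91 to 0.10 (CCNB1) and −0.65 to 0.08 (PLK1) under estradiol and −0.38 to 0.09 (PLK1) under vehicle.

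Medians that changed sign or size were 0.12, 0.25 and 0.17 with the array SD (and −0.05 for estradiol alone), −0.0053 for estradiol alone with quantile normalization, −0.07, 0.11 and 0.15 with array weights (estradiol alone, estradiol with astrocytes, interaction), and −0.42 under estradiol, 0.16 and 0.08 (estradiol with astrocytes, interaction) without replicate 2 of both. That last setting gave 0.10 for CCNB1 under estradiol and 0.08, 0.09 and 0.09 for PLK1. Quantile normalization gave 0.15, 0.11 and 0.13 for PLK1 and 0.03 for FOXM1 under vehicle, and array weights 0.15 for CCNB1 under estradiol. The array SD turned 43 of 93 member values positive. Under estradiol these were 0.17 (CCNA2), 0.55 (CCNB1), 0.51 (CDK1), 0.48 (PLK1), 0.01 (AURKA), 0.05 (NUF2), 0.25 (NDC80), 0.05 (KIF11), 0.06 (KIF18A), 0.00011 (TPX2), 0.27 (TOP2A), 0.21 (ESPL1), 0.16 (ECT2) and 0.13 (RACGAP1). Under vehicle these were 0.26 (CCNA2), 0.43 (CCNB1), 0.37 (CDK1), 0.21 (FOXM1), 0.50 (PLK1), 0.32 (AURKA), 0.31 (KIF11), 0.16 (KIF2C), 0.39 (TPX2), 0.22 (PRC1), 0.53 (TOP2A), 0.15 (ESPL1), 0.52 (ECT2) and 0.28 (RACGAP1). In the mean of both these were 0.22 (CCNA2), 0.49 (CCNB1), 0.44 (CDK1), 0.49 (PLK1), 0.17 (AURKA), 0.0016 (NUF2), 0.11 (NDC80), 0.18 (KIF11), 0.08 (KIF2C), 0.19 (TPX2), 0.07 (PRC1), 0.40 (TOP2A), 0.18 (ESPL1), 0.34 (ECT2) and 0.21 (RACGAP1). The cause was not tested.

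With the replicate number as a block, 22 members were called under estradiol, 6 under vehicle and 31 in the mean of both, all lower, against 19.4%, 9.22% and 27.4% of all genes called lower. By the check of deviations, the numbers paired only part of the arrays of cells grown alone with those of co-culture. For replicate 1 the r ran from 0.512 to 0.664. For replicate 2 it was 0.457 and 0.485 with estradiol alone but −0.436 and −0.481 with vehicle alone. For replicate 3 it ran from −0.353 to 0.065. The labels do not say what the numbers mark. Median centring, the level filter, averaging the probe sets of a gene and the variance options kept all counts within 1.5 times. With 3 arrays a group, the number of arrays and the narrow range of signal of the co-culture arrays limit what these comparisons can show.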
